A study of Homo sapiens with 6 samples.

Results

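The genes described here encode 3 groups of RNA-binding splicing factors, namely the heterogeneous nuclear ribonucleoproteins (hnRNP, 20 genes), the polypyrimidine tract-binding proteins (PTBP, 3 genes) and the serine and arginine-rich splicing factors (SRSF, 12 genes). They were taken by gene symbol from the transcript files, and all 35 were found among 36532 genes listed. RNA came from 4 cell lines of atypical teratoid rhabdoid tumor (AT/RT), a malignant embryonal brain tumor in which the chromatin remodeling subunit SMARCB1 is usually lost. The lines (CHLA 06, CHLA 05, CHLA 04 and CHLA 02) came from a cell bank and were grown untreated in medium with EGF, basic FGF and B-27 supplement. CHLA 02 and CHLA 05 had 1 library each, while CHLA 04 and CHLA 06 had 2 technical replicates each, so that each line is 1 biological sample and no SMARCB1-expressing line was sequenced here. The study lists all 4 lines as lacking SMARCB1, and CHLA 06 had been assigned to another AT/RT subgroup than the other three. The question that these data address is how far the splicing factor repertoire differed among AT/RT lines.

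In the nucleus, hnRNP proteins coat newly made RNA and often block the use of nearby splice sites, whereas SR proteins bind exonic enhancers and recruit the spliceosome. PTBP1 keeps neuronal exons out of messenger RNA in progenitor and non-neural cells, and its paralog PTBP2 replaces it as neurons differentiate. Many genes of these families limit their own output by splicing in a poison exon, which brings a premature stop codon and sends the transcript to nonsense-mediated decay (NMD).

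Values were TPM (transcript abundance scaled for length and library total), summed over the transcripts of a gene. Differences between lines were computed on log2(TPM + 2) from the means of technical replicates, and a difference of 1 or more is called 2-fold. No test was possible with 1 biological sample per line, so each difference is set beside the spread between technical replicates and beside its share over the 16035 genes with at least 1 TPM in a line. All 35 members passed that filter. Recovered reads per library ranged from 10265899 in CHLA 04 replicate 1 to 20520229 in CHLA 06 replicate 2. The mitochondrial share of TPM was 8.44% in CHLA 02, 4.78% in CHLA 05, 1.83% and 3.27% in the CHLA 04 replicates, and 6.92% and 8.67% in those of CHLA 06. The part of depth and of the mitochondrial share in the results was not tested, apart from values rescaled without mitochondrial genes. A lower level in bulk RNA cannot be told apart from a smaller share of cells that express the gene.

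The label of the cells was set beside marker genes. SMARCB1 was listed at 13.4 to 26.2 TPM, which does not show whether an intact message is made. The 7 AT/RT and neural progenitor markers, SMARCB1 included, all reached 1 TPM in a line, with a summed level of 5355 to 19600 TPM that was mostly VIM. VIM was highest in CHLA 06, whereas NES, SOX2, PAX6, MSI1 and SMARCA4 had their lowest means there. For NES the CHLA 06 replicates (5.21 and 10.5 TPM) overlapped those of CHLA 04 (10.8 and 6.93 TPM). SOX2 was near the floor, with 0 and 4 reads in the CHLA 06 replicates beside 2 reads in CHLA 02. PAX6 was at 0.60 and 0.94 TPM and MSI1 at 8.26 and 8.20 TPM in the CHLA 06 replicates. SOX2 reached 1 TPM in CHLA 05 alone (4.03 TPM). The summed level of the 4 glial markers (GFAP, S100B, OLIG2 and AQP4) was 58.5 TPM in CHLA 02, 98.3 and 89.0 in CHLA 04 and 223 in CHLA 05, against 0.417 and 0.0601 in CHLA 06. The 5 neuronal markers summed to 323 to 1134 TPM, although DCX stayed under 1 TPM in every line. The 3 fibroblast markers (COL1A1, DCN and LUM) summed to 407 TPM in CHLA 02 and to 645 and 490 in CHLA 06, against 0.959 to 11.7 in the libraries of CHLA 04 and CHLA 05. The 3 epithelial markers (EPCAM, KRT18 and KRT8) followed the same split, with 82.1 TPM in CHLA 02 and 109 and 110 in CHLA 06 against 0.111 to 0.360. Of the 4 blood or endothelial markers, PTPRC, PECAM1 and CDH5 were under 1 TPM in every line and CD68 reached 22.6 TPM in CHLA 06 replicate 2. CHLA 02 and CHLA 06 thus shared markers that were much lower in CHLA 04 and CHLA 05, where COL1A1 still reached 11.5 TPM in CHLA 05, and the part of this split in the results below was not tested.

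Splicing factors of these families were among the most abundant messages of all 4 lines. Their median percentile by mean TPM was 96.6 among the genes tested. The hnRNP genes spanned 50.1 TPM (HNRNPUL2) to 1556 TPM (HNRNPA1) as means over the lines, with a median of 312. The SRSF genes spanned 11.9 TPM (SRSF12) to 305 TPM (SRSF9), with a median of 195. Among the PTBP genes, PTBP1 had 293 TPM, PTBP3 67.6 TPM on average over lines and PTBP2 20.0 TPM. HNRNPA1 and HNRNPA2B1, which bind UAG-containing RNA, and HNRNPK, which binds cytosine-rich RNA, were the most abundant members.

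**Figure D1:**
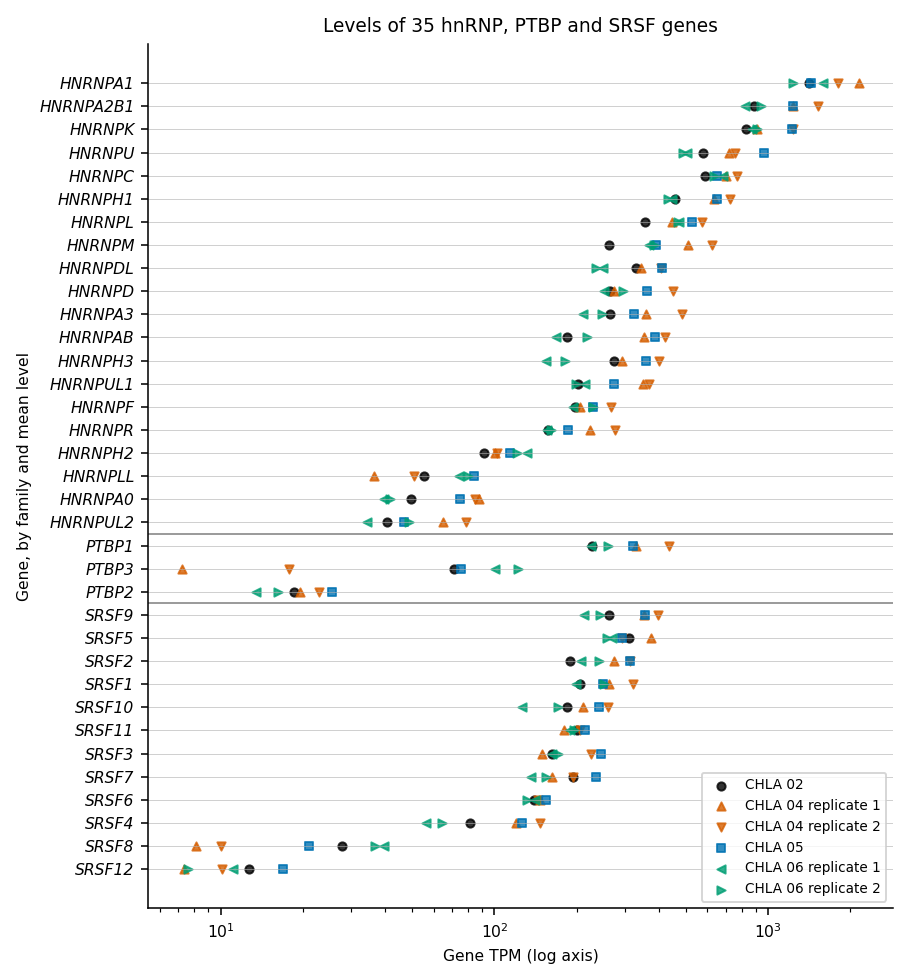
Gene TPM (log axis) of the 35 members, grouped by family and ordered by mean level, with 1 symbol per library. Most genes lie in a narrow range across the 6 libraries, while PTBP3 (7.23 and 17.8 TPM) and SRSF8 (8.10 and 10 TPM) lie to the left in the CHLA 04 libraries.

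Summed over the 20 hnRNP genes, TPM was 7472 in CHLA 02, 9908 in CHLA 05, 10005 and 11381 in the CHLA 04 replicates, and 7632 and 7552 in those of CHLA 06. The hnRNP sum was therefore higher in CHLA 04 (10693 ± 973, SD of 2 technical replicates) and CHLA 05 than in CHLA 02 and CHLA 06 (7592 ± 56.8), with no overlap between libraries. The 12 SRSF genes summed to 1972 TPM in CHLA 02, 2460 in CHLA 05, 2246 and 2517 in the CHLA 04 replicates, and 1746 and 1924 in those of CHLA 06, which is the same split by pairs of lines in TPM as deposited. Between CHLA 04 and CHLA 05 the SRSF sums did not differ beyond the technical spread (2381 ± 191 in CHLA 04). The 3 PTBP genes summed to 317 TPM in CHLA 02, 423 in CHLA 05, 357 and 474 in the CHLA 04 replicates, and 339 and 398 in those of CHLA 06, and these ranges overlapped. Scaling moved the family sums, and the SRSF split did not hold under 2 scalings. With quantile normalization the SRSF sum of CHLA 04 replicate 1 was 2029 TPM, below CHLA 02 (2132) and CHLA 06 replicate 2 (2074). With trimmed mean of M-values (TMM) factors it was 2004 TPM, again below CHLA 02 (2050) and CHLA 06 replicate 2 (2119). The hnRNP sums of the CHLA 04 and CHLA 05 libraries stayed above those of the others under all 3 other scalings. With TMM factors the hnRNP sum was 9846 in CHLA 04 and 8380 in CHLA 06, and without mitochondrial genes it was 8161 in CHLA 02 and 8234 in CHLA 06.

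Of the 35 members, 7 differed 2-fold or more between the highest and the lowest line, or 20.0%, beside 43% of all genes tested. They were HNRNPA0, HNRNPAB, HNRNPH3, HNRNPM, PTBP3, SRSF4 and SRSF8. The median difference was 0.71 over the members and 0.88 over all genes tested. Technical replicates of the members differed by a median of 0.28 in CHLA 04 and 0.18 in CHLA 06 in absolute value, beside 0.29 and 0.16 over all genes tested. For 30 members (85.7%) the difference between lines exceeded the larger technical difference, beside 85.8% of all genes tested, so that this count matched the background. It did not for HNRNPD, HNRNPF, SRSF3, SRSF5 and SRSF11. In CHLA 04, replicate 2 was above replicate 1 for 31 of 35 members, beside 7146 of the 16035 genes tested. The median difference was 0.27 over the members, whereas the median over all genes tested was -0.03.

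**Figure D2:**
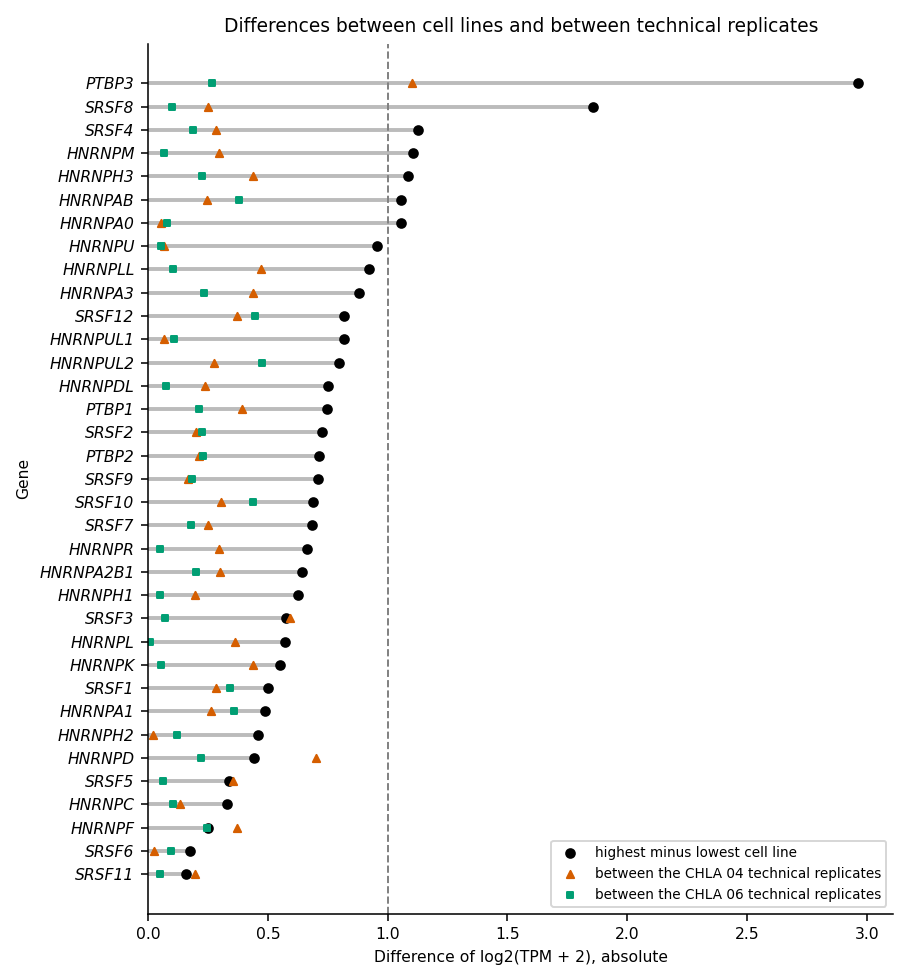
Absolute difference of log2(TPM + 2) for each member between its highest and lowest line (black) and between the technical replicates of CHLA 04 (triangles) and CHLA 06 (squares). PTBP3 (2.96) and SRSF8 (1.86) stand to the right of the dashed line at 1 with the largest gaps, and 5 other members lie between 1.05 and 1.12.

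Scaling or the choice of technical replicate decided 5 of these 7 calls. Only PTBP3 and SRSF8 kept a difference of 1 or more under every alternative tried. Values without mitochondrial genes left 5 members past 2-fold, and HNRNPA0 (0.98) and HNRNPAB (0.97) fell short. With TMM factors or quantile normalization 3 members were past it. With TMM factors SRSF4 was at 0.87, HNRNPM at 0.93 and HNRNPH3 at 0.85, and HNRNPLL came in. With quantile normalization HNRNPU came in. Without CHLA 04 replicate 2, HNRNPM differed by 0.95 and SRSF4 by 0.98 between the same lines.

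PTBP3, a PTB paralog that is found outside the nervous system and especially in blood-forming cells, gave the largest difference. Its gene (ENSG00000119314) lies on the minus strand at chr9:112217716-112333667 in GRCh38. PTBP3 was at 71.2 TPM in CHLA 02, 75.7 in CHLA 05, 7.23 and 17.8 in the CHLA 04 replicates, and 101 and 122 in those of CHLA 06. Both CHLA 04 libraries lay below all others, and the order of the line means was CHLA 06, CHLA 05, CHLA 02 and CHLA 04, where CHLA 05 and CHLA 02 lay closer than the technical SD of 14.8 TPM in CHLA 06. These levels rest on 133 and 544 recovered reads in CHLA 04 and on 2380 to 5244 reads in the other libraries. The difference between CHLA 06 and CHLA 04 was 2.96 on the log2(TPM + 2) scale, and it ranged from 2.51 to 3.62 when a technical replicate was left out. The technical replicates of CHLA 04 themselves differed by 1.10. Their exact Poisson intervals at the 95% level, 6.05 to 8.57 and 16.3 to 19.4 TPM, did not overlap, so that they differed beyond counting error. Such intervals cover counting error only.

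PTBP1 (ENSG00000011304, plus strand, chr19:797075-812327), the broadly expressed paralog, had 227 TPM in CHLA 02, 322 in CHLA 05, 331 and 434 in the CHLA 04 replicates, and 225 and 260 in those of CHLA 06. Its CHLA 04 libraries were above all others, by a narrow margin in replicate 1. With PTBP3 at only 7.23 and 17.8 TPM in the CHLA 04 replicates, PTBP1 made up 92.5% and 91.4% of PTB TPM there. The PTBP1 share was 71.7% in CHLA 02, 76.1% in CHLA 05, and 66.3% and 65.4% in the CHLA 06 replicates. The ratio of PTBP1 to PTBP3 was 45.7 and 24.4 in CHLA 04 and 2.14 to 4.25 in the other libraries. PTBP2 (ENSG00000117569, plus strand, chr1:96721665-96823738), the neural paralog, was low in every line. It had 18.5 TPM in CHLA 02, 25.5 in CHLA 05, 19.5 and 22.9 in the CHLA 04 replicates, and 13.5 and 16.1 in those of CHLA 06. CHLA 05 was highest and both CHLA 06 libraries were lowest, with a difference of 0.71 that fell short of 2-fold.

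**Figure D3:**
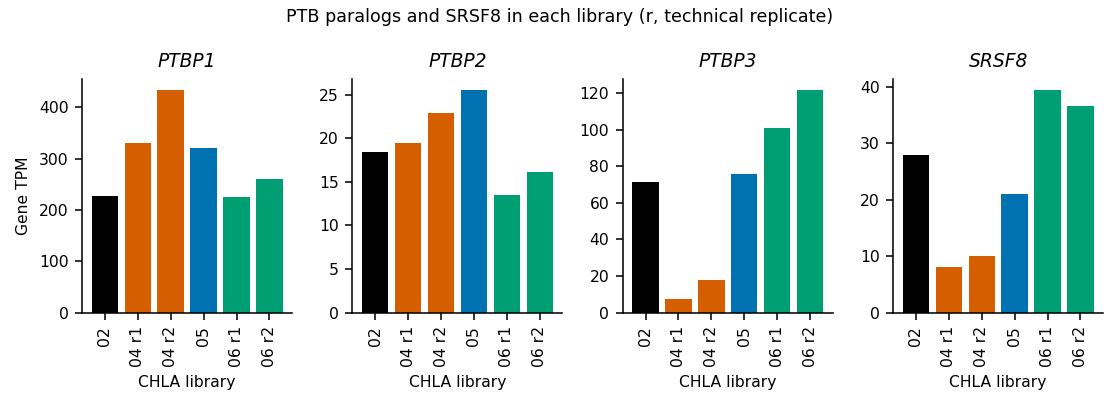
Gene TPM of PTBP1, PTBP2, PTBP3 and SRSF8 in each library (bars from 0, with a separate scale per gene; r marks technical replicates). In the CHLA 04 libraries PTBP3 is at 7.23 and 17.8 TPM and SRSF8 at 8.10 and 10 TPM, while PTBP1 is at 331 and 434 TPM.

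SRSF8, an SR protein gene that arose as a retrocopy of SRSF2, had the next largest difference. The gene (ENSG00000263465) has 1 listed transcript and lies on the plus strand at chr11:95067197-95071224. SRSF8 had 27.8 TPM in CHLA 02, 21.1 in CHLA 05, 8.10 and 10 in the CHLA 04 replicates, and 39.4 and 36.6 in those of CHLA 06. The CHLA 04 libraries, with 138 and 278 reads, were the lowest, the CHLA 06 libraries were the highest, and the difference of 1.86 compares with technical differences of 0.25 and 0.10. Neighboring genes at 1 TPM or more were set beside both, a choice made after the values were seen. SUSD1, next to PTBP3 and 42308 bp away, was at 0.3 and 0.9 TPM in CHLA 04 and at 5.9 to 8.3 TPM elsewhere, whereas HSDL2 on the other side was at 39.4 and 42.1 TPM in CHLA 04 and 50.3 to 70.9 TPM elsewhere. ENDOD1, 18586 bp from SRSF8, was at 1.4 and 3.3 TPM in CHLA 04, 8.8 TPM in CHLA 05 and 48.3 to 50.8 TPM in CHLA 02 and CHLA 06, while CWC15 on the other side was at 55 and 57.6 TPM in CHLA 04 and 48.9 to 63.5 TPM elsewhere. HSDL2 was thus also lower in both CHLA 04 libraries than in all others, by less than SUSD1 was, whereas CWC15 was not. Of the 4 such genes compared for each (2 on either side), 3 beside PTBP3 and 2 beside SRSF8 had their lowest mean in CHLA 04, as did 25.7% of all genes tested. Some of these were near the floor in the CHLA 04 replicates, with 1 and 5 reads for SUSD1, 0 and 3 for RP11-4O1.2 and 2 and 0 for RP11-712B9.2. Copy number was not measured, and its part was not tested.

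The other 5 members past 2-fold differed less. HNRNPAB, which binds AU-rich RNA, had 185 TPM in CHLA 02, 385 in CHLA 05, 353 and 419 in the CHLA 04 replicates, and 167 and 218 in those of CHLA 06. HNRNPM, a regulator of alternative splicing in epithelial and mesenchymal cells, had 262 TPM in CHLA 02, 389 in CHLA 05, 509 and 624 in the CHLA 04 replicates, and 367 and 384 in those of CHLA 06. HNRNPAB split CHLA 04 and CHLA 05 from CHLA 02 and CHLA 06, while HNRNPM set CHLA 02 apart as the lowest and CHLA 04 as the highest line. HNRNPA0, which stabilizes AU-rich messages, had 49.6 TPM in CHLA 02, 74.6 in CHLA 05, 88.0 and 84.7 in the CHLA 04 replicates, and 39.4 and 41.7 in those of CHLA 06. HNRNPH3, of the G-tract binding H and F group, had 274 TPM in CHLA 02, 357 in CHLA 05, 293 and 398 in the CHLA 04 replicates, and 154 and 180 in those of CHLA 06. SRSF4 had 81.7 TPM in CHLA 02, 126 in CHLA 05, 120 and 147 in the CHLA 04 replicates, and 56.1 and 64.1 in those of CHLA 06. For HNRNPA0, HNRNPH3 and SRSF4 both CHLA 06 libraries were below all others.

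Among the core SR proteins, SRSF1 had 206 TPM in CHLA 02, 249 in CHLA 05, 263 and 320 in the CHLA 04 replicates, and 198 and 251 in those of CHLA 06, and the libraries of CHLA 05 and CHLA 06 overlapped in range. SRSF6 was the most even of the exonic enhancer binding SR genes, at 132 to 154 TPM in all 6 libraries. SRSF11 differed least of all members, by 0.16. SRSF12, a low-level member, had 12.7 TPM in CHLA 02, 16.9 in CHLA 05, 7.37 and 10.1 in the CHLA 04 replicates, and 11.1 and 7.60 in those of CHLA 06, and its technical differences (0.37 and 0.45) were close to those between several lines. HNRNPA1, the most abundant member, had 1410 TPM in CHLA 02, 1429 in CHLA 05, 2155 and 1798 in the CHLA 04 replicates, and 1586 and 1235 in those of CHLA 06. Its means in CHLA 02, CHLA 05 and CHLA 06 did not differ beyond the technical SD of 248 TPM in CHLA 06. This order depended on 3 transcripts, described further on, that were nearly absent from CHLA 02 and CHLA 05. Without them HNRNPA1 had 1397 TPM in CHLA 02, 1419 in CHLA 05, 1890 and 1272 in the CHLA 04 replicates, and 1091 and 904 in those of CHLA 06. Both CHLA 06 libraries were then below all others, and CHLA 04 replicate 2 lay below CHLA 02 and CHLA 05. HNRNPC, which guards RNA against the use of cryptic Alu exons, ranged from 586 TPM in CHLA 02 to 771 TPM in CHLA 04 replicate 2, a difference of 0.33 between line means.

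By pairs of lines, the members past 2-fold were few. Between CHLA 02 and CHLA 04 there were 4 (17.2% of all genes tested), with HNRNPAB and HNRNPM higher in CHLA 04 and PTBP3 and SRSF8 lower. HNRNPAB alone differed between CHLA 02 and CHLA 05 (20% of all genes). Between CHLA 02 and CHLA 06 the count was 0 of 35 (9.48% of all genes). PTBP3 and SRSF8 were the 2 members that differed between CHLA 04 and CHLA 05 (17.2% of all genes). Between CHLA 04 and CHLA 06 there were 5 (30.2% of all genes), with HNRNPA0, HNRNPH3 and SRSF4 lower and PTBP3 and SRSF8 higher in CHLA 06. HNRNPH3 and SRSF4 were lower in CHLA 06 than in CHLA 05, which makes 2 (26.3% of all genes). In each pair, the share of members was below that of all genes, without a match for their high level.

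In TPM as deposited, smaller shifts had a common direction in 4 of the 6 pairs of lines. CHLA 05 was above CHLA 02 for 33 of 35 members (55.8% of all genes tested), with a median difference of 0.38 over members and 0.08 over all genes. CHLA 04 was above CHLA 02 for 29 members (58.1% of all genes), with medians of 0.36 and 0.13. CHLA 06 was above CHLA 05 for only 4 members (39.6% of all genes), with medians of -0.40 and -0.17, and above CHLA 04 for 5 (40.7% of all genes), with medians of -0.46 and -0.19. The other pairs had none, since CHLA 06 was above CHLA 02 for 19 members (45.3% of all genes) and CHLA 05 above CHLA 04 for 17 (48.4% of all genes). Both CHLA 04 libraries were above all others for 11 members, or 31.4%, beside 23.5% of all genes. That count was 22 (62.9%) without CHLA 04 replicate 1, beside 31.2% of all genes, but 12 (34.3%) without replicate 2, below the 36.2% of all genes. With TMM factors it was 6 (17.1%), which was below the 18.5% of all genes. It was 7 (20.0%) with quantile normalization (22.35% of all genes) and 7 without mitochondrial genes (21.0% of all genes). The share of members was thus below that of all genes under the 3 other scalings. Both CHLA 06 libraries were below all others for 12 members, or 34.3%, beside 28.7% of all genes. With TMM factors it was 7 members (20.0%), below the 21.8% of all genes. With quantile normalization it was 11 (31.4%), above the 19.6% of all genes. Without mitochondrial genes it was also 11 (31.4%), above the 27.5% of all genes. CHLA 02 had the lowest mean for 16 members, or 45.7%, beside 17.5% of all genes, and this count was 11 to 16 under the 3 other scalings, beside 15.4% to 21.6% of all genes. The pairs share lines, so these counts are not independent of each other.

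Transcripts added detail that gene sums hide. The 35 genes had 407 listed transcripts, of which 211 are annotated as protein-coding, 95 as retained intron, 54 as NMD and 39 as lacking a defined coding sequence in GENCODE, and 8 were not matched. The most abundant transcript carried a median of 42.7% of a member's TPM, and it was protein-coding for 30 of 35 members. Those without a protein-coding leader were HNRNPAB, HNRNPH1, HNRNPU, SRSF7 and SRSF11, the first of them because its leading transcript was not matched. The leading transcript differed between lines for 11 members. For PTBP1, a protein-coding transcript (ENST00000349038) led in CHLA 02, CHLA 04 and CHLA 05, with 39.2% of its TPM in CHLA 05, while a retained-intron transcript (ENST00000586944) led in CHLA 06 with 21.6%. Transcript shares follow the reads as the authors' software assigned them, and reads shared by isoforms can be split between them in more than 1 way.

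Inclusion of 6 known cassette exons was computed as the TPM of transcripts with the exon as a share of those plus the transcripts that join the same flanking exons. The exons with the widest differences (PTBP1 exon 9 and HNRNPD exon 7), the PTBP2 exon that PTBP1 represses and an HNRNPA2B1 exon whose pattern depended on the transcripts used are given below, read from GRCh38 on the transcribed strand, with the exon in capitals and 40 intron bases before and 20 after it in lower case. They were chosen because their skipping changes the protein made, and, for PTBP2, because skipping shifts the reading frame and exposes the message to NMD.
PTBP1 exon 9, 78 bases, chr19:805492-805569, plus strand: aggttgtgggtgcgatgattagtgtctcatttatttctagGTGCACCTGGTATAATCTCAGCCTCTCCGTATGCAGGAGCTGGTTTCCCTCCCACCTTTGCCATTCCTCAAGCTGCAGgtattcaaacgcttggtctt
PTBP2 exon 10, 34 bases, chr1:96806419-96806452, plus strand: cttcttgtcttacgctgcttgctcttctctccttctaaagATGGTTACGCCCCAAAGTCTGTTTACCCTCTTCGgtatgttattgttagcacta
HNRNPD exon 7, 147 bases, chr4:82356537-82356683, minus strand: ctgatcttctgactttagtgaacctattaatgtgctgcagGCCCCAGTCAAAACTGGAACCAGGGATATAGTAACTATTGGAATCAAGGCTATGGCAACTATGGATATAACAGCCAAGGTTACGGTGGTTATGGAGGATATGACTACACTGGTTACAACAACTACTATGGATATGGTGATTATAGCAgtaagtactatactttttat
HNRNPA2B1 exon 2, 36 bases, chr7:26197831-26197866, minus strand: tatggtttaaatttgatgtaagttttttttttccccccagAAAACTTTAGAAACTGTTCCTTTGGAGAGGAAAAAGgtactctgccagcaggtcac

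The 34-base length of the PTBP2 exon is not a multiple of 3, whereas the other exons shown are. The letters TCTT, a core of PTB binding sites, were searched on the transcribed strand in the 100 intron bases before each exon, counting overlaps. They occurred 6 times before PTBP2 exon 10, which 0.512% of the 391 internal exons of members matched or exceeded. They occurred 3 times before HNRNPD exon 7 and 0 times before PTBP1 exon 9 and HNRNPA2B1 exon 2, and 59.6% of the internal exons had at least 1. CTCTCT, which does not contain TCTT, was found once before PTBP2 exon 10 and in 4.09% of the windows. A match is a description of the letters only.

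PTBP1 exon 9, which lengthens the linker between RNA-binding domains and is known to alter repressor activity, had the widest difference among these exons. Its inclusion was 37.2% in CHLA 02, 18.8% in CHLA 05, 22.5% and 24.1% in the CHLA 04 replicates, and 50.8% and 52.5% in those of CHLA 06. The CHLA 06 libraries were above and the CHLA 05 library below all others, and the spread of 32.9 points between lines compares with at most 1.74 points between technical replicates. By recovered reads in place of TPM the share was 10% in CHLA 05 and 41.4% and 45.0% in CHLA 06. Over protein-coding transcripts alone, an alternative chosen after the data were seen, it was 16.9% in CHLA 05 and 42.7% and 54.5% in CHLA 06, and the technical difference grew to 11.8 points. PTBP2 exon 10 was included at 65.5% in CHLA 02, 76.5% in CHLA 05, 64.7% and 69.0% in the CHLA 04 replicates, and 67.3% and 79.8% in those of CHLA 06. Its spread between lines, 11 points, was smaller than the 12.5 points between the CHLA 06 replicates, so no difference was detectable. By recovered reads the share of PTBP2 exon 10 was 92.5% to 96.9% over the libraries, so its level depended on the measure. No transcript that skips it is annotated as protein-coding.

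HNRNPD, known as the AU-rich element binding factor AUF1, makes its protein forms by splicing of exons 2 and 7. Inclusion of exon 7 was 58.1% in CHLA 02, 52.5% in CHLA 05, 42.6% and 35.3% in the CHLA 04 replicates, and 34.5% and 38.4% in those of CHLA 06. CHLA 02 and CHLA 05 were above CHLA 04 and CHLA 06 by more than the largest technical difference of 7.34 points. CHLA 04 and CHLA 06 are also the lines with technical replicates. A property of these lines and a property of how their libraries were made or mapped cannot be told apart. HNRNPD has 2 named pseudogenes in GENCODE, and their part was not tested. Exon 2 of 57 bases (chr4:82371528-82371584) ranged from 73.9% in CHLA 02 to 86.2% in CHLA 04 replicate 2, with a spread between lines of 9.0 points beside a technical difference of 8.10 points. Exon 2 of HNRNPA2B1, which sets the longer protein form apart from the shorter, was included at 11.1% in CHLA 02, 5.39% in CHLA 05, 5.25% and 5.64% in the CHLA 04 replicates, and 10% and 11% in those of CHLA 06. CHLA 02 and CHLA 06 lay above CHLA 04 and CHLA 05, but 63.1% of the TPM with the exon came from a transcript annotated as NMD (ENST00000360787). Over protein-coding transcripts alone the share was 2.06% in CHLA 02, 2.60% in CHLA 05, 2.70% and 3.63% in the CHLA 04 replicates, and 2.76% and 3.14% in those of CHLA 06. The split was therefore absent among the protein-coding forms. Exon 7B of HNRNPA1 (156 bases, chr12:54283079-54283234) was included at 56.4% in CHLA 02, 45.5% in CHLA 05, 62.2% and 50.5% in the CHLA 04 replicates, and 38.6% and 39.7% in those of CHLA 06. It rests on 1 transcript with the exon and on a gene with 74 named pseudogenes in GENCODE, so that its share is uncertain.

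**Figure D4:**
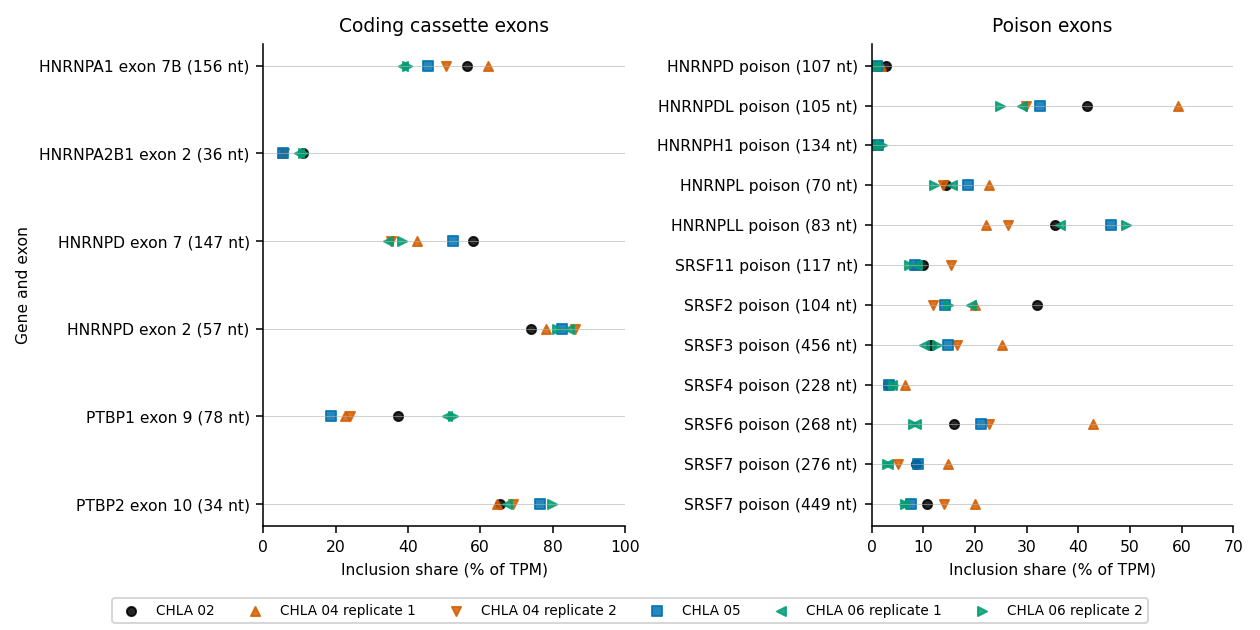
Inclusion share in percent of TPM for 6 coding cassette exons (left, axis to 100) and 12 poison exons (right, axis to 70), with 1 symbol per library. PTBP1 exon 9 runs from 18.8% in CHLA 05 to 52.5% in CHLA 06 replicate 2, and the SRSF6 poison exon from 8.05% in CHLA 06 replicate 2 to 42.8% in CHLA 04 replicate 1.

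Poison exons were taken by rule as exons whose including transcripts were annotated as NMD or without a coding sequence while a skipping transcript was protein-coding, with a mean of at least 2 TPM on each side. There were 12 of them in 11 members, and 8 held an annotated stop codon. Those of HNRNPD, HNRNPDL, SRSF2 and SRSF4 held none, and they are called poison exons by this rule alone. The SRSF6 poison exon is shown because it differed most in points, with the exon in capitals and 20 intron bases before and 10 after it in lower case.
SRSF6 poison exon, 268 bases, chr20:43459153-43459420, plus strand: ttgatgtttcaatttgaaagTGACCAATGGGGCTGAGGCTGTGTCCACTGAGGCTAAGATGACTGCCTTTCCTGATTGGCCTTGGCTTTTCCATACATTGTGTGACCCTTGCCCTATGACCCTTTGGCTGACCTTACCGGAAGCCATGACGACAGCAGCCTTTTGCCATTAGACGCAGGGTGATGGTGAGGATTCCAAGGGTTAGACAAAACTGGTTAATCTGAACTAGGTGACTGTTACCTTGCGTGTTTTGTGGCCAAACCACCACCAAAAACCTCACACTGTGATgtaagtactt

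The SRSF6 poison exon was included at 15.9% in CHLA 02, 21.2% in CHLA 05, 42.8% and 22.6% in the CHLA 04 replicates, and 8.70% and 8.05% in those of CHLA 06. Both CHLA 06 libraries were the lowest, but the spread of 24.4 points was only a little above the technical difference of 20.2 points in CHLA 04. By recovered reads the share was 6.83% in CHLA 02, 9.47% in CHLA 05 and 22.5% and 10.2% in the CHLA 04 replicates. It was 3.57% and 3.29% in those of CHLA 06, so its level depended on the measure, while CHLA 06 stayed lowest. SRSF6 gene TPM, as given above, was nearly even at the same time. The SRSF3 poison exon (456 bases) was included at 11.6% in CHLA 02, 14.8% in CHLA 05, 25.3% and 16.6% in the CHLA 04 replicates, and 10.2% and 12.7% in those of CHLA 06. By recovered reads the SRSF3 share was lower, at 2.87% to 8.45% over the libraries. The longer SRSF7 form (449 bases) stood at 10.6% in CHLA 02, 7.63% in CHLA 05, 20.1% and 14.1% in the CHLA 04 replicates, and 6.19% and 6.44% in those of CHLA 06. CHLA 04 was highest for 6 of 7 SRSF poison exons and CHLA 06 lowest for 5 of 7. These 7 include overlapping SRSF7 forms of 276 and 449 bases with the same skipping TPM, so they are not all separate exons. The spread between lines exceeded the larger technical difference for 4 of the 7. In CHLA 04, replicate 1, the shallowest library, was above replicate 2 for 6 of these 7. Without it, CHLA 04 was highest for 4 of 7 and CHLA 06 still lowest for 5 of 7. The rule was applied to members alone. These counts have no share over other genes beside them and describe the listed exons only.

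The SRSF2 poison exon (104 bases) went another way, with 32.1% in CHLA 02, 14.3% in CHLA 05, 20.0% and 11.9% in the CHLA 04 replicates, and 19.3% and 14.7% in those of CHLA 06. CHLA 02 stood above all other libraries. Among hnRNP genes, the HNRNPLL poison exon (83 bases) was included at 35.4% in CHLA 02, 46.4% in CHLA 05, 22.2% and 26.4% in the CHLA 04 replicates, and 36.5% and 49.3% in those of CHLA 06. HNRNPLL is a paralog of HNRNPL that switches CD45 exons in lymphocytes, and its gene TPM was also lowest in CHLA 04, at 36.2 and 51.0 beside 55.4 to 84.5 elsewhere. The HNRNPDL poison exon (105 bases) was at 59.3% in CHLA 04 replicate 1 and 29.9% in replicate 2, a technical difference larger than the 17.6 points between lines. For 6 of the 12 poison exons the spread between lines exceeded the larger technical difference, again without a share over the exons of other genes. Over all members, NMD transcripts took 6.76% to 9.49% of the summed TPM in each library, beside 4.07% to 4.85% over all transcripts. The median share over members was 3.31% to 6.42%. It was below that of all transcripts in CHLA 04 replicate 2 (3.40% beside 4.65%) and CHLA 05 (3.31% beside 4.07%). Shares differed widely between members, with 0% for HNRNPA0 and 35.9% to 57.8% for SRSF1.

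A further pattern concerned 4 of the 407 member transcripts, which were at 20 TPM or more in all CHLA 04 and CHLA 06 libraries and at least 5 times their level in CHLA 02 and CHLA 05. Over all transcripts, 0.026% (45 of 173113) met this. ENST00000551702 of HNRNPA1 had 142 and 278 TPM in CHLA 04 and 257 and 174 TPM in CHLA 06, against 1.86 in CHLA 02 and 1.59 in CHLA 05, where it rested on 6 and 5 reads. ENST00000547276 of HNRNPA1 had 35.3 and 142 TPM in CHLA 04 and 143 and 111 TPM in CHLA 06, against 1.85 and 2.19. ENST00000330752 of HNRNPA1 had 87.9 and 106 TPM in CHLA 04 and 95.3 and 45.8 TPM in CHLA 06, against 9.01 and 5.80. ENST00000555883 of HNRNPC, a gene with 9 named pseudogenes, had 47.0 and 66.9 TPM in CHLA 04 and 71.2 and 41.6 TPM in CHLA 06, against 2.91 and 3.37. The 3 HNRNPA1 transcripts together made up 12.3% and 29.3% of HNRNPA1 TPM in CHLA 04 and 31.2% and 26.8% in CHLA 06, but 0.902% in CHLA 02 and 0.671% in CHLA 05.

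**Figure D5:**
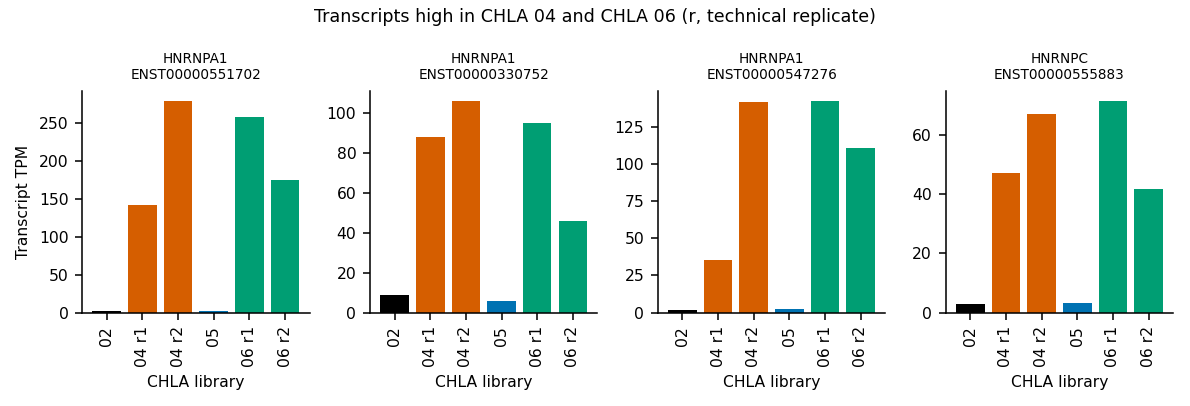
Transcript TPM (bars from 0, with a separate scale per transcript) of the 4 member transcripts that were high in CHLA 04 and CHLA 06; r marks technical replicates. In CHLA 02 and CHLA 05 each transcript is at 9.01 TPM or less, while the other libraries hold 35.3 TPM or more.

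These 45 transcripts came from 39 genes, of which 31 (79.5%) have a named pseudogene in GENCODE, beside 11.8% of all genes tested and 57.1% of the members. The same rule gave 71, 5, 284, 18 and 1 transcripts for the other pairs of lines, with 0 of them from a member. CHLA 04 and CHLA 06 are the lines with technical replicates, so that a property of these lines and a property of how their libraries were made or mapped cannot be told apart.

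Other genes of the splicing machinery were taken from 7 lists. In all, 25 of 104 tested genes (24.0%) differed 2-fold or more between lines, with a median difference of 0.74, beside 43% of all genes. None of 9 SR-like cofactors did, and of 8 tested SR protein kinases and importins SRPK1 alone did, with 79.6 TPM in CHLA 02, 112 in CHLA 05, 46.6 and 60.8 in the CHLA 04 replicates, and 71.7 and 98.6 in those of CHLA 06. Of 35 core spliceosome genes, 3 (U2AF1, SNRPE and SNRPG) passed. U2AF1, which reads the end of the intron, had 11.1 TPM in CHLA 05 and 44.5 to 102 TPM elsewhere, but GRCh38 holds a near-identical copy of it and its value is uncertain. Of 10 NMD factors, SMG5 and SMG9 passed, and ILF2, RBM3 and TAF15 were among the hnRNP-related proteins that did.

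Larger differences were seen among the neural splicing regulators. Of 12 tested, 10 passed 2-fold (83.3%), beside 43% of all genes, with a median difference of 1.92. Of 14 general regulators 5 did (35.7%, below the share of all genes), which were CELF2, MBNL1, MBNL2, MBNL3 and QKI. The median difference of the general regulators was 0.70, close to the 0.71 of the members. CELF2, which binds UG-rich RNA and is abundant in brain and muscle, had 101 TPM in CHLA 02, 246 in CHLA 05, 164 and 160 in the CHLA 04 replicates, and 0.13 and 0.07 in those of CHLA 06. NOVA1, a neuronal regulator, had 8.95 TPM in CHLA 02, 49.6 in CHLA 05, 20.9 and 14.2 in the CHLA 04 replicates, and 1.21 and 0.63 in those of CHLA 06. Both were lowest in CHLA 06, the line with the lowest glial markers. RBFOX2, in contrast, had 467 and 397 TPM in CHLA 06 and 337 in CHLA 02 beside 126 and 151 in CHLA 04 and 106 in CHLA 05. ELAVL3 was highest in CHLA 04 with 27.6 and 29.1 TPM, and QKI was lowest in CHLA 06 with 76.8 and 63.0 TPM beside 206 to 368 TPM elsewhere. The rule for these lists names at most 12 genes, those with the largest differences, and the other genes of these lists named here, from SRPK1 to TAF15 and MBNL1, were added after their values were seen. These lists, like the members, carry no test.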

How the data were processed

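Total RNA of 4 AT/RT cell lines was sequenced as stranded 125 bp read pairs in 6 libraries. After trimming with Trimmomatic, the authors used CLCbio Genomics Workbench with GRCh38 and Ensembl release 82, and deposited TPM per transcript. The submitters' processing notes also name CASAVA 1.8.2 and FastQC. In CHLA 04 replicate 2, CHLA 06 replicate 1 and CHLA 06 replicate 2, 2181, 114 and 1336 values above 1 are written to 3 digits only. LTR element files were not used here.

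TPM was summed by gene identifier, technical replicates were averaged, and log2(TPM + 2) was compared between lines with Python 3.11.15 and pandas 2.3.3. Genes with 1 TPM or more in a line were kept. Each line had 1 biological sample, so no test was run. Reads were recovered as whole multiples of a step (tolerance 0.05), which was tested on simulated data. They give counting error only, from 10265899 to 20520229 reads per library. Biotypes came from GENCODE version 44, matched by transcript. Of 545 member introns, 96.3% began with GT and ended with AG in the GRCh38 sequence used. All members were named, and other genes by a rule of at most 12 list genes past 2-fold by size. The 7 splicing lists (SR-like cofactors, SR protein kinases and importin, hnRNP-related proteins, neural and general regulators, core spliceosome, NMD) and the 6 marker lists, the members, exons and neighbors were chosen with earlier results of these data known. Alternatives varied the pseudocount, filter, scaling, transcripts used and technical replicates.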

Additional observations from a re-analysis of the deposited data

How the results depend on the processing

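Values rest on 1 biological sample per line, and the spread between cultures was not measured. No paired analysis was possible because no comparison was tested and replicate numbers mark technical repeats of 1 line. Pseudocounts of 0.1 and 1 and filters of 0 or 5 TPM left the 7 members past 2-fold in place. For every result listed here the cause was not tested. The median over genes tested shifted by up to 0.13 (CHLA 06, TMM factors) under another scaling, and by -0.11 in CHLA 04. No small non-coding RNA genes were listed, so that alternative removed mitochondrial genes alone.

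The number of members past 2-fold was 3 with quantile normalization, 3 with TMM factors and 11 with the most abundant transcript. The median difference was 0.50 with TMM factors. By pairs, the maximum of technical replicates gave 1 for CHLA 04 and CHLA 05 and 0 for CHLA 05 and CHLA 06. Quantile normalization gave 2 (CHLA 02 and CHLA 04), 0 (CHLA 02 and CHLA 05), 1 (CHLA 04 and CHLA 05) and 2 (CHLA 04 and CHLA 06). TMM factors gave 2, 0, 3 (CHLA 04 and CHLA 06) and 1 (CHLA 05 and CHLA 06). Without mitochondrial genes these were 0 (CHLA 02 and CHLA 05), 3 and 1, and the most abundant transcript gave 2 (CHLA 02 and CHLA 05) and 4 (CHLA 05 and CHLA 06).

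The hnRNP sum was 11381 in CHLA 04 with the maximum of technical replicates. With quantile normalization it was 7906 in CHLA 02 and 10755 in CHLA 05, and the SRSF sum was 2132, 2165 and 1976 in CHLA 02, CHLA 04 and CHLA 06. With TMM factors the hnRNP sum was 9846, 9268 and 8380 in CHLA 04, CHLA 05 and CHLA 06, and the SRSF sum 2192 and 2026 in CHLA 04 and CHLA 06. Without mitochondrial genes the hnRNP sum was 8161, 10406 and 8234 in CHLA 02, CHLA 05 and CHLA 06, and the SRSF sum 2153 and 1992 in CHLA 02 and CHLA 06. With the most abundant transcript, sums by rising line number (02 to 06) were 3512, 4886, 4598 and 3249 (hnRNP), 95.3, 134, 172 and 100.2 (PTBP) and 974, 1094, 1292 and 957 (SRSF). With protein-coding transcripts alone they were 5408, 8090, 7097 and 5754, 206, 223, 287 and 258, and 1190, 1420, 1542 and 1219.

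Leaving out 1 technical replicate gave 6 to 9 members past 2-fold. By pairs it gave 2 to 4 (CHLA 02 and CHLA 04), 1 to 4 (CHLA 04 and CHLA 05), 4 to 8 (CHLA 04 and CHLA 06) and 0 to 3 (CHLA 05 and CHLA 06), hnRNP sums of 10005 to 11381 in CHLA 04, and median top-transcript shares of 42.0% to 45.6%. With protein-coding transcripts alone, inclusion of HNRNPA2B1 exon 2 was -0.54 points in CHLA 02 minus CHLA 05, a reversal.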
